A study of Mus musculus with 12 samples.

Results

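The unfolded protein response (UPR) was described in the main olfactory epithelium (MOE) of the mouse through 10 genes, Atf5, Atf4, Trib3, Ddit3, Atf3, Eif2ak3, Ern1, Xbp1, Hspa5 and Hsp90b1, which were chosen by name. Each was read by 1 probe set that carries its symbol alone, and they make up 10 of the 19938 named genes of the array. RNA was taken from either side of the MOE after unilateral naris occlusion (UNO), a closure of the right nostril by cautery at 14 days of age that lasted 3 weeks and deprives the neurons of the closed side of most odor input. The 4 groups of 3 samples each were the closed and the open side of H2be-KO mice and the closed and the open side of WT mice. In H2be-KO mice the coding sequence of H2be, a gene for a histone H2B variant of olfactory neurons, is replaced by that of the membrane-bound reporter GAP43-mCherry, and the line was made in embryonic stem cells and crossed to C57Bl/6. Every mouse had been operated on, so that the open side is a side of an occluded animal and no MOE of an unoperated mouse was analysed here. By the design text each sample pooled 2 mice, 1 female and 1 male, although the legends of the study give a larger pool, and it was titled as 5 weeks old, whereas its age entry gives 6 months.

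The UPR is the set of signals by which the endoplasmic reticulum (ER) reports an excess of unfolded protein, and it starts from sensors in the ER membrane that are held inactive by the chaperone BiP. PERK phosphorylates the initiation factor eIF2 alpha, which slows translation in general and lets a few mRNAs such as those of Atf4 and Atf5 be translated, while IRE1 splices the mRNA of Xbp1 and ATF6 is cut to release a transcription factor. In olfactory neurons the onset of odorant receptor (OR) expression is known to engage PERK and the translation of Atf5, and the signal ends once adenylyl cyclase 3 (Adcy3) is made, which ties this stress pathway to the choice of a single OR. An array measures mRNA, and neither the translation of Atf4 and Atf5 nor the splicing of Xbp1 was measured here. The tissue was MOE with all its cell types, in which fewer cells of a type and less RNA per cell cannot be told apart.

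Sequences upstream of the members are shown first, because a few of them hold the letters of an element that factors of this pathway are known to bind. All 10 members were matched by symbol to 11 start sites in RefSeq (mouse build GRCm38.p6), and windows of 250 bases before to 50 bases after the start were searched on both strands for 4 elements. The ER stress response element, CCAAT and CCACG set 9 bases apart, to which ATF6 binds together with NF-Y, was present in 2 members, the chaperone genes Hspa5 and Hsp90b1, and in 0.119% of all 32851 windows. In the following stretches the capitals mark CCAAT and CCACG, and all are upstream of the transcription start and outside the gene. Hspa5 lies on the plus strand and its stretch covers chr2:34772010-34772058, with the element beginning 65 bases before the start. Hsp90b1 lies on the minus strand and its stretch covers chr10:86705518-86705671, with 1 element beginning 212 bases before the start and another, read on the opposite strand, 107 bases before it. Adcy3, which is not a member, is shown because it is the gene that closes the receptor signal and because its mRNA differed between the sides, and its stretch covers chr12:4133236-4133284 on the plus strand, with the element 146 bases before the start.
Hspa5: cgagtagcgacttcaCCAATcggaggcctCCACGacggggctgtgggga
Hsp90b1: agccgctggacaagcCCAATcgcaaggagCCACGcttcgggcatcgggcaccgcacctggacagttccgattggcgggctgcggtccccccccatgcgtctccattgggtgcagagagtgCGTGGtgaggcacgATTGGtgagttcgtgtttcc
Adcy3: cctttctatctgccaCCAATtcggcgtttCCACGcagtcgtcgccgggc

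The CEBP-ATF element, TGATGCAA or TGATGAAA, to which ATF4 and CHOP bind, was present in 1 member, Atf3, and in 1.9% of all windows. It is shown because Atf3 had the largest difference between the sides of the 10 members, and its stretch covers chr1:191183421-191183458 on the minus strand of GRCm38.p6, with the element in capitals on the opposite strand, 110 bases before the start.
Atf3: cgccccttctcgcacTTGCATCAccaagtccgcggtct
The UPR element TGACGTGG occurred in 0.676% of all windows and the cAMP response element TGACGTCA in 1.79%, and neither was present in a window of the 10 members. A match describes these letters in this window and is not evidence of binding, and a window without a match says nothing of the factor.

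The deposited values are log2 expression levels after sketch-quantile normalization, 1 per probe set and array. On every array 13 markers of mature olfactory neurons averaged a log2 level between 11.00 and 11.29. No other tissue was among the samples, so this level cannot test the MOE label. Over all probe sets r was 0.965 to 0.978 for the 12 pairs of arrays within a group and 0.963 to 0.977 for the 54 pairs between groups. In limma the 4 group means were estimated together for each of 32615 probe sets whose mean log2 level exceeded 5, all 10 members among them, and a gene is called changed where its p adjusted over those probe sets (Benjamini-Hochberg) was under 0.05. The targeted gene, H2be (H2bc21), lay between 11.31 and 11.46 in the 6 KO arrays, against 11.55 to 11.75 in the 6 WT arrays, a difference of -0.27 that did not pass (adjusted p = 0.336, limma), and whether its probes lie in the replaced part was not given in the sources used here. The 3 samples of a group are labelled as replicates, and nothing in the labels says whether the closed and open samples with the same number came from the same mice. The p-values between the sides treat all samples as independent, which could not be checked.

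None of the 10 UPR genes passed the test between the closed and the open side. In the comparison of the closed with the open side averaged over both genotypes, 0 members were called, against 2.9% of all probe sets, and 2 members, Atf3 and Eif2ak3, had an unadjusted p under 0.05, against 13.2% of all probe sets. By direction 1.66% of all probe sets rose on the closed side and 1.23% fell. The median log2 difference of the members was -0.006, and that of all named genes was 0.005. Their differences ran from -0.56 in Atf3 to 0.15 in Ern1, and the standard errors ran from 0.056 to 0.16. Within the KO 0 members were called and 1 had an unadjusted p under 0.05, where 1.05% and 10.5% of probe sets did so, and within the WT 0 were called and 0 had such a p, where 0.855% and 9.34% of probe sets did so.

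**Figure D1:**
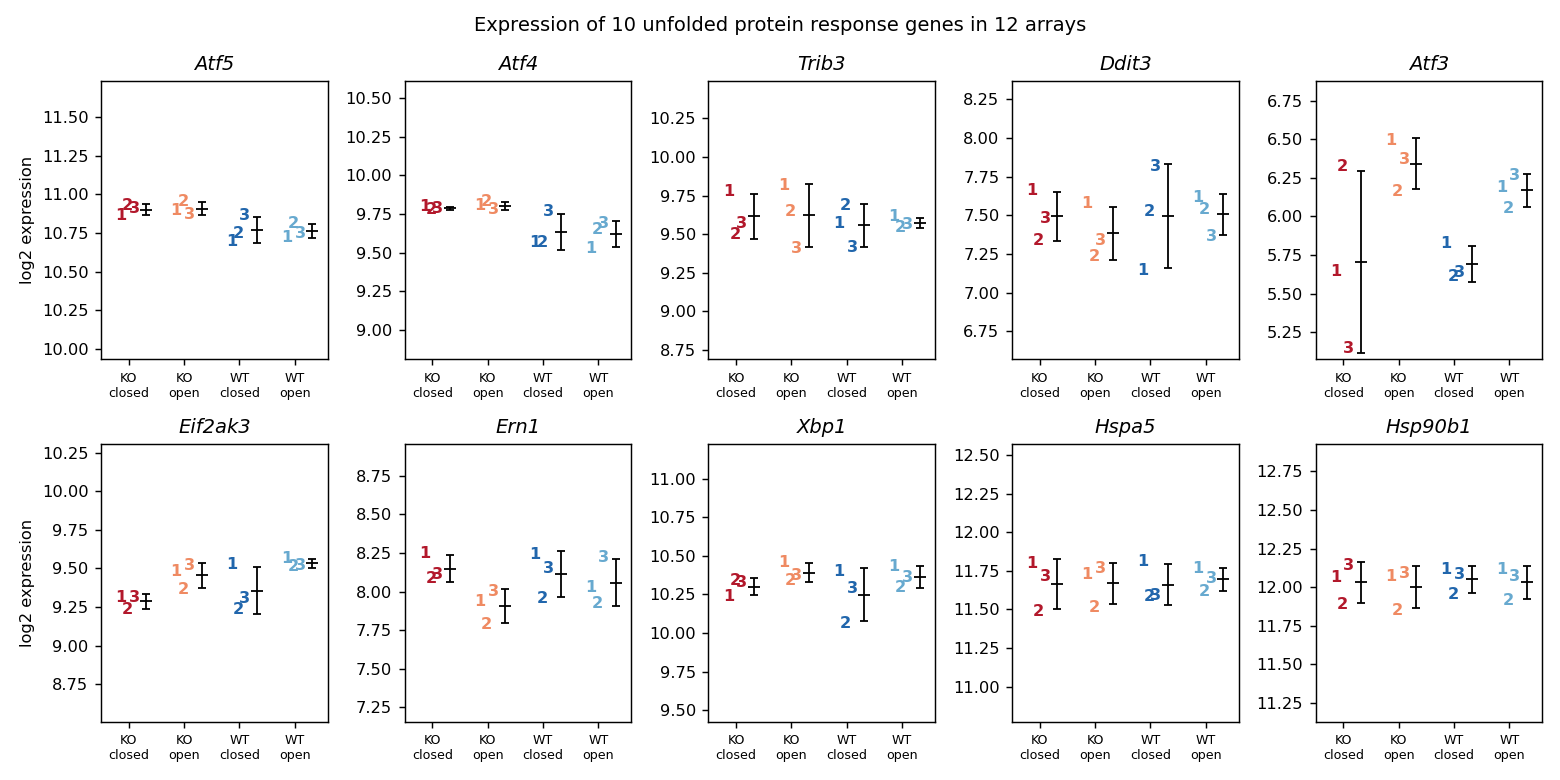
Log2 expression of the 10 genes (y axis, each panel spanning the same log2 range) in the closed and open sides of KO and WT mice. Each array is drawn as its sample number and the bar beside it gives the mean ± SD (n = 3 arrays). The Atf3 panel has the widest scatter, with KO closed sample 2 at 6.33 and sample 3 at 5.15, and the Atf4 panel has all 6 KO arrays above all 6 WT arrays.

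Atf5 encodes the transcription factor whose translation the OR signal switches on. It was measured at a log2 level of 10.86, 10.93 and 10.91 in the KO closed side, 10.89, 10.95 and 10.87 in the KO open side, 10.70, 10.74 and 10.86 in the WT closed side and 10.72, 10.81 and 10.75 in the WT open side. The closed and open arrays overlapped in both genotypes, and the 12 arrays spanned 0.26 on the log2 scale, the narrowest range of the 10 members. The closed side differed from the open side by 0.0001 on the log2 scale (95% interval -0.122 to 0.122, adjusted p = 1, limma), so that the interval of the fold ran from 0.919 to 1.09.

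Atf4 encodes the transcription factor at the centre of the integrated stress response. Its mRNA was at a log2 level of 9.80, 9.78 and 9.78 in the KO closed side, 9.80, 9.83 and 9.78 in the KO open side, 9.57, 9.57 and 9.77 in the WT closed side and 9.53, 9.65 and 9.69 in the WT open side. The sides overlapped in both genotypes, and the difference between closed and open was -0.0015 (95% interval -0.133 to 0.13, adjusted p = 0.996, limma). The KO arrays of Atf4 lay close together, with an SD of 0.009 on the closed and 0.025 on the open side, against 0.117 on the closed and 0.083 on the open side of the WT.

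Ddit3 encodes CHOP, the factor that Atf4 induces under prolonged ER stress, and Trib3 encodes a pseudokinase induced by both. Ddit3 was at 7.66, 7.34 and 7.48 in the KO closed side, 7.57, 7.23 and 7.34 in the KO open side, 7.14, 7.53 and 7.82 in the WT closed side and 7.62, 7.54 and 7.36 in the WT open side. Its closed side thus overlapped with its open side, with the widest scatter in the WT closed side (SD 0.338), and the difference was 0.050 (95% interval -0.202 to 0.303, adjusted p = 0.918, limma). Trib3 lay between 9.41 and 9.81 over the 12 arrays, with overlapping groups, and its difference was -0.011 (95% interval -0.198 to 0.175, adjusted p = 0.979, limma).

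Atf3, a stress-induced factor that is also switched on by neuronal activity as an immediate early gene, had the lowest values on the closed side. The KO values were 5.64, 6.33 and 5.15 in the KO closed side, against 6.49, 6.16 and 6.37 in the KO open side. It was 5.82, 5.61 and 5.64 in the WT closed side, against 6.19, 6.05 and 6.27 in the WT open side. In the WT each closed array lay below each open array, whereas in the KO closed sample 2 lay above open sample 2 and the sides overlapped. Averaged over genotypes the closed side differed by -0.56 (SE 0.16, 95% interval -0.906 to -0.205), with a p of 0.00488 before and 0.109 after adjustment over all probe sets (limma).

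Whether Atf3 was called turned on 1 array, KO closed sample 2, and on the variance model. The difference was -0.64 within the KO (adjusted p = 0.313, limma) and -0.48 within the WT (adjusted p = 0.562, limma). Without that array the averaged difference was -0.71 (adjusted p = 0.00603, limma) and the KO difference -0.95 (adjusted p = 0.0325, limma), and both were called, whereas without KO closed sample 3, the lowest of the 12, the averaged difference was -0.42 (adjusted p = 0.147, limma) and the KO difference -0.36 (adjusted p = 0.585, limma). With a variance trend and robust fitting in limma the averaged difference, at its full size, had an adjusted p of 0.0402. The mean log2 level of Atf3 was 5.98, close to the filter at 5, and its 12 arrays spanned 1.34 on the log2 scale, while the other 9 spanned between 0.26 and 0.67. Immediate early genes stood beside it: of 21 tested, 0 rose and 3 fell on the closed side, where 3.9% of all named genes were called. Nr4a1 fell by a log2 difference of -1.07, Dusp1 of -0.40 and Npas4 of -0.35 (adjusted p = 0.00024, 0.0138 and 0.0438, limma). The median of the 21 was -0.14, against 0.005 for all named genes. The Npas4 difference was -0.05 in the KO (5.75 to 5.86 closed, against 5.78 to 5.98 open, with overlap; adjusted p = 0.945, limma) and -0.65 in the WT (5.45 to 5.88 closed, against 6.23 to 6.43 open, without overlap; adjusted p = 0.0248, limma), and the difference between the genotypes did not pass (0.60, adjusted p = 1, limma). The averaged call of Npas4 was lost in 11 of 12 omissions of single arrays (adjusted p up to 0.113) and in 5 of 8 other settings (up to 0.221).

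**Figure D2:**
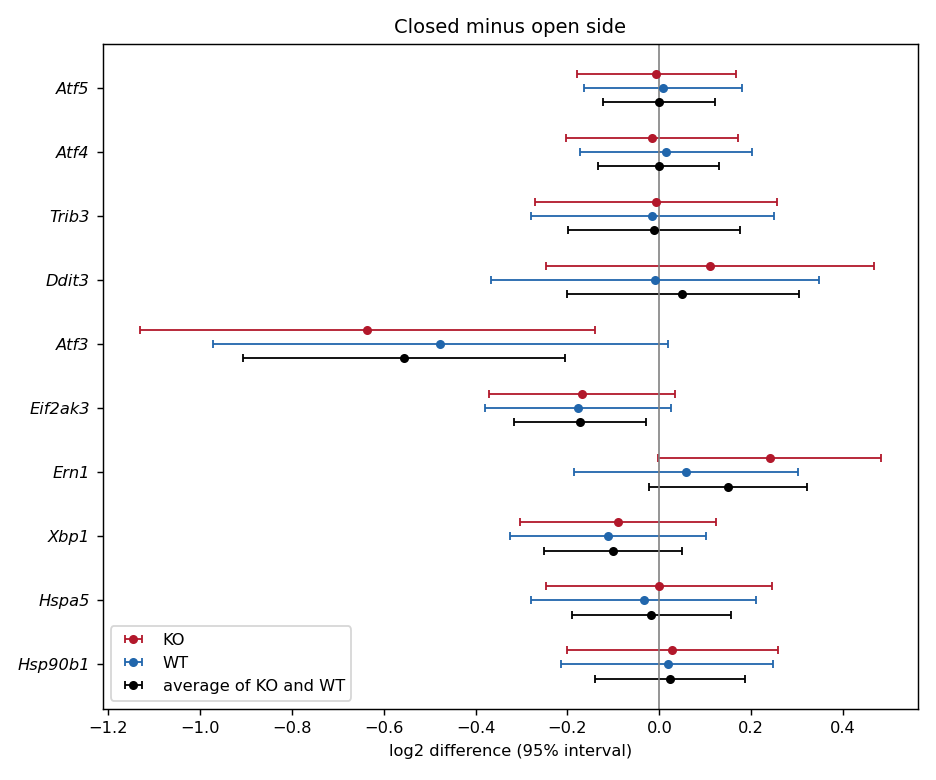
Difference in log2 expression between the closed and the open side (x axis) for each of the 10 genes, in the KO, in the WT and averaged over both, with the 95% interval of the limma fit. The averaged interval lies below 0 for Atf3 (-0.906 to -0.205) and Eif2ak3 (-0.316 to -0.029) and includes 0 for the other 8 genes.

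The sensors of the ER membrane among the members are Eif2ak3, which encodes PERK, and Ern1, which encodes IRE1 alpha. Eif2ak3 was at 9.31, 9.23 and 9.31 in the KO closed side, against 9.48, 9.37 and 9.52 in the KO open side. It was at 9.53, 9.23 and 9.31 in the WT closed side, against 9.57, 9.51 and 9.52 in the WT open side. The KO sides did not overlap and the WT sides did so through WT closed sample 1, and the averaged difference of -0.17 (SE 0.066, 95% interval -0.316 to -0.029) had a p of 0.0226 before and 0.259 after adjustment (limma).

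Ern1 was at 8.25, 8.09 and 8.11 in the KO closed side, against 7.94, 7.79 and 7.999 in the KO open side. It was at 8.24, 7.95 and 8.15 in the WT closed side, against 8.03, 7.92 and 8.22 in the WT open side. The KO sides did not overlap and the WT sides did. The difference was 0.24 in the KO (adjusted p = 0.482, limma) and 0.06 in the WT, and the difference between the genotypes was 0.18 (SE 0.157, adjusted p = 1, limma). Ern1 averaged over genotypes was 0.15 (95% interval -0.023 to 0.321, adjusted p = 0.47, limma).

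Xbp1, whose mRNA is the substrate of IRE1, was at 10.23, 10.34 and 10.33 in the KO closed side, against 10.46, 10.34 and 10.37 in the KO open side. It was at 10.40, 10.06 and 10.29 in the WT closed side, against 10.43, 10.29 and 10.36 in the WT open side. The KO sides were separated by less than 0.01, between closed sample 2 and open sample 2, and the WT sides overlapped. The averaged difference was -0.10 (95% interval -0.252 to 0.05, adjusted p = 0.612, limma). Over the 10 members the closed and open arrays of the KO did not overlap in 3, Eif2ak3, Ern1 and Xbp1, where 17.3% of all probe sets did not, and those of the WT did not overlap in 1, Atf3, where 13.2% of all probe sets did not.

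Hspa5 encodes BiP, the main ER chaperone, and Hsp90b1 encodes its HSP90 counterpart GRP94, and the stretches shown for them hold 1 and 2 ER stress response elements. Hspa5 was at 11.80, 11.49 and 11.72 in the KO closed side, 11.73, 11.52 and 11.76 in the KO open side, 11.81, 11.58 and 11.59 in the WT closed side and 11.76, 11.62 and 11.70 in the WT open side. Hsp90b1 was at 12.07, 11.89 and 12.14 in the KO closed side, 12.07, 11.85 and 12.09 in the KO open side, 12.12, 11.95 and 12.08 in the WT closed side and 12.12, 11.91 and 12.07 in the WT open side. In both genes the closed and open arrays overlapped, and sample 2 was the lowest of its group in all 4 groups. The differences between the sides were -0.018 for Hspa5 (95% interval -0.191 to 0.155, adjusted p = 0.963, limma) and 0.023 for Hsp90b1 (95% interval -0.14 to 0.186, adjusted p = 0.946, limma).

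No member responded to UNO differently in the 2 genotypes by the test of the difference itself. For the genotype-by-side difference limma called 0 of the 10 members and 0 of the 32615 probe sets, 0% of them, while 0 members and 4.01% of probe sets had an unadjusted p under 0.05. The differences of the members between the genotypes ran from -0.16 in Atf3 (SE 0.32) to 0.18 in Ern1 (SE 0.157).

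The KO and WT were compared on each side and over both sides. On the closed side 0 members were called, where 0.0245% of probe sets were, and 0 had an unadjusted p under 0.05, where 4.26% did. On the open side 0 were called, where 0.0215% were, and again 0 had such a p, where 6.67% did. Averaged over the sides, a comparison added after the data were seen, 0 members were called, where 0.0276% were, and 2 members, Atf4 and Atf5, had an unadjusted p under 0.05, where 6.8% of probe sets did.

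Atf4 and Atf5 were the members with the highest values in the KO relative to the WT. For Atf4 each of the 6 KO arrays (9.78 to 9.83) lay above each of the 6 WT arrays (9.53 to 9.77), an order found in 0.11% of all probe sets in that direction and in 0.35% in either direction. The nearest arrays, KO closed sample 2 at 9.777 and WT closed sample 3 at 9.769, were less than 0.01 apart. The difference was 0.17 averaged over sides (SE 0.06, 95% interval 0.035 to 0.299), with a p of 0.0176 before and 0.681 after adjustment (limma), 0.15 on the closed side (adjusted p = 0.999, limma) and 0.18 on the open side (adjusted p = 0.757, limma). For Atf5 the KO lay above the WT without overlap on the open side, and on the closed side KO sample 1 and WT sample 3, both at 10.86, came together. Its difference was 0.14 averaged over sides (SE 0.056, 95% interval 0.017 to 0.261), with a p of 0.0286 before and 0.701 after adjustment (limma), 0.13 on the closed side and 0.15 on the open side.

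**Figure D3:**
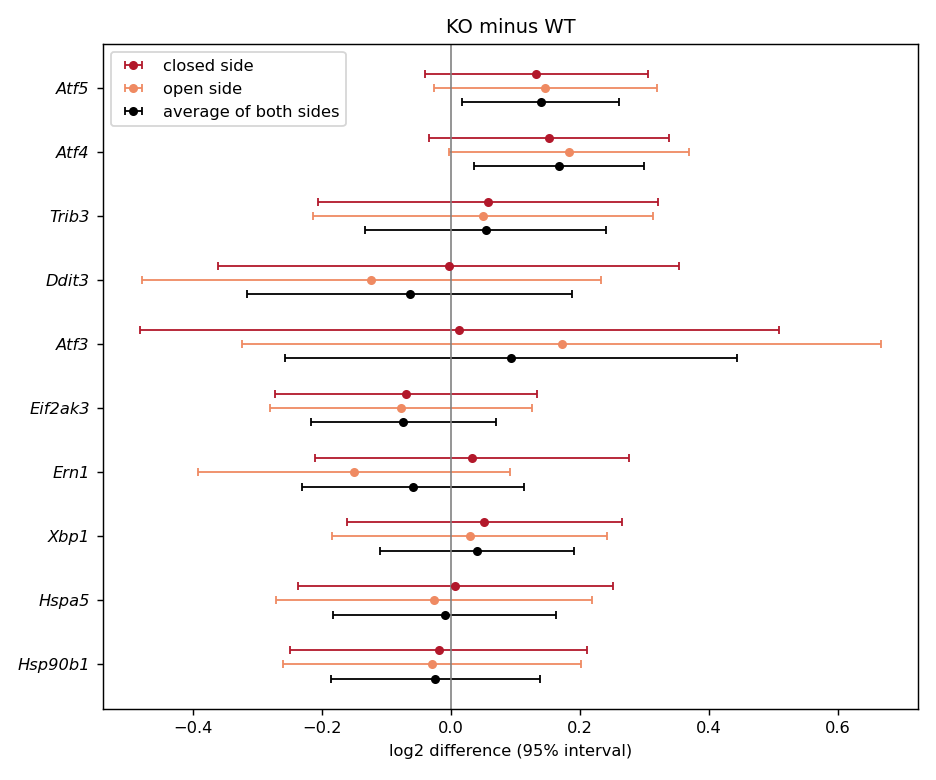
Difference in log2 expression between KO and WT (x axis) for each of the 10 genes on the closed side, on the open side and averaged over both sides, with the 95% interval of the limma fit. The averaged intervals of Atf5 (0.017 to 0.261) and Atf4 (0.035 to 0.299) lie above 0, and none of the 10 genes passed the test after adjustment.

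The other 8 members differed between KO and WT by -0.07 in Eif2ak3 to 0.09 in Atf3 over both sides, and each of their 95% intervals included 0. Arrays of KO and WT did not overlap in 2 members on the open side, where 12.4% of probe sets did not, and in 1 member, Atf4, on the closed side, where 8.82% did not. Beside Atf4 and Atf5 the median KO-minus-WT difference was 0.026 over 13 markers of mature olfactory neurons and 0.003 over 11 markers of immature ones, with 0 called in either list.

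The members that varied together over the 12 arrays were examined in 45 pairs. Atf5 and Atf4 correlated with r = 0.93 and rho = 0.85 over the 12 arrays (adjusted p = 0.0054 and 0.0355 over the 45 pairs, permutation tests), and r was 0.88 without the 2 arrays farthest from the median of Atf5. Part of this relation was between the genotypes: within the 6 KO arrays r was 0.47 (exact permutation p = 0.375) and within the 6 WT arrays 0.85 (exact permutation p = 0.0319, adjusted p = 0.375), and with the mean of each group removed it was 0.77 (permutation p = 0.0517, adjusted p = 0.291). In the WT, sample 1 was the lowest or level with the lowest of its side for both genes, and closed sample 3 was the highest of the WT.

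Hspa5 and Hsp90b1 correlated with r = 0.83 (permutation p = 0.00129, adjusted p = 0.029) and rho = 0.69 (adjusted p = 0.19), and r was 0.65 without the 2 arrays farthest from the median of Hspa5. It was 0.90 within the KO (exact permutation p = 0.0625), 0.70 within the WT (exact permutation p = 0.144) and 0.85 with group means removed (permutation p = 0.00694, adjusted p = 0.104). The number 2 samples, lowest for Hsp90b1 in every group, carried much of the spread. Atf5 and Hspa5 gave r = -0.45 over the 12 arrays (-0.19 without the 2 farthest from the median of Atf5) and, with group means removed, r = -0.75 (permutation p = 0.0162, adjusted p = 0.182), -0.90 within the KO and -0.76 within the WT, which did not pass after adjustment. With group means removed 2 pairs passed. Eif2ak3 and Hspa5 gave r = 0.84 (permutation p = 0.00154, adjusted p = 0.0347), and over all 12 arrays 0.59 (adjusted p = 0.411). Eif2ak3 and Hsp90b1 gave r = 0.70 (permutation p = 0.000772, adjusted p = 0.0347), and over all 12 arrays 0.38 (adjusted p = 0.728). The permutation tests of the pairs treat arrays with the same number in different groups as unrelated, which could not be checked. Eif2ak3, Hspa5 and Hsp90b1 were each lowest in sample 2 of every group. The median r of the 45 pairs was 0.024, and Atf4 gave r = 0.053 with Ddit3 (permutation p = 0.869) and r = 0.005 with Trib3 (permutation p = 0.988). Within the genotypes Atf4 and Trib3 gave r of opposite sign, 0.57 in the KO (exact permutation p = 0.232, adjusted p = 0.746) and -0.84 in the WT (exact permutation p = 0.0417, adjusted p = 0.375), and the difference between them was not tested.

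**Figure D4:**
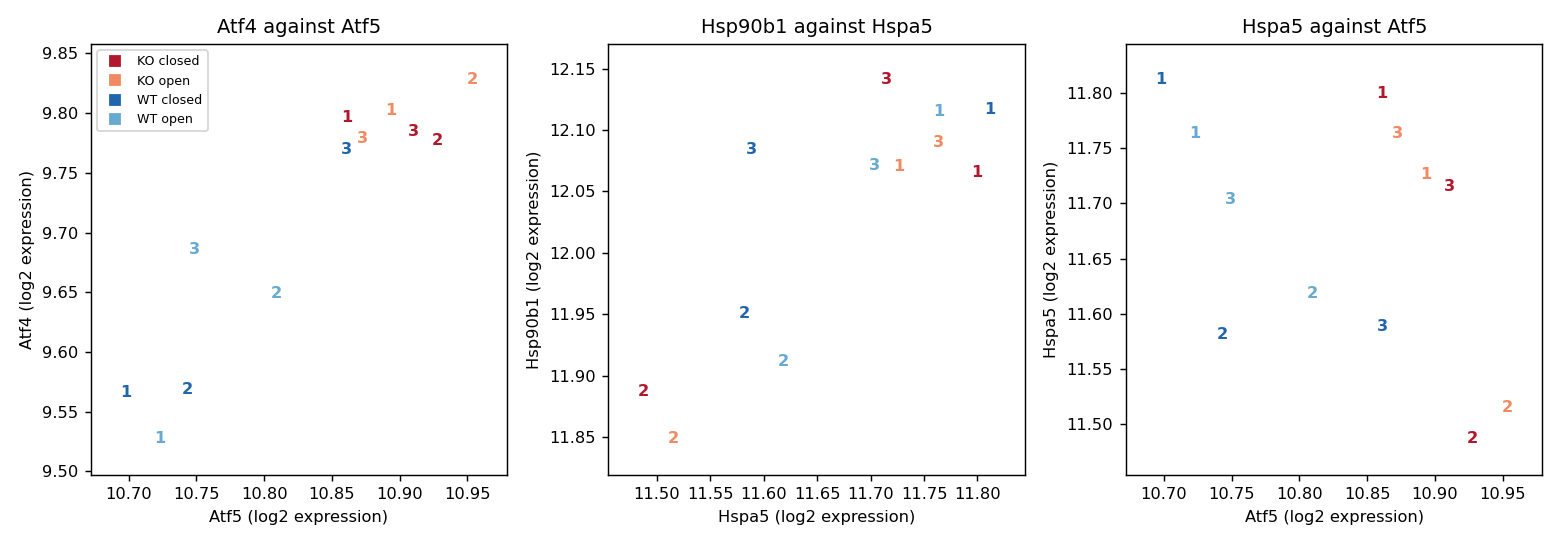
Log2 expression of pairs of members in the 12 arrays, with Atf4 against Atf5, Hsp90b1 against Hspa5 and Hspa5 against Atf5. Each array is drawn as its sample number in the color of its group. The 6 KO arrays lie above the WT arrays in the left panel (r = 0.93), and the arrays numbered 2 lie at the lower end of Hsp90b1 in the middle panel (r = 0.83).

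Among 19389 other named genes, those whose log2 level followed Atf5 most closely over the 12 arrays were Snord57, a small nucleolar RNA (r = 0.93), Atf4 (r = 0.93), Hspa8, which encodes the constitutive cytosolic HSP70 (r = 0.92), and Rnf26 and Olfr874 (r = 0.89 each). The 99th percentile of r with Atf5 over all these genes was 0.717, and all arrays share the 4 groups and their normalization. Hspa8 lay between 12.21 and 12.32 in the KO, against 11.63 to 12.11 in the WT, with no overlap, and its difference over both sides of 0.37 did not pass (adjusted p = 0.576, limma). With the mean of all probe sets of the gene in place of the one with the highest level it was 0.12 (adjusted p = 0.76, limma). For Hspa5 the closest were Ddost, a subunit of the oligosaccharyltransferase of the ER (r = 0.97), Gpx4 (r = 0.96), Ankrd28 (r = 0.95), S100a11 (r = 0.94) and Capns1 (r = 0.94), and the 99th percentile was 0.824. Ddost, like Hspa5, was lowest in sample 2 of each group, and the others were so in every group but the WT closed side. The mean of the ER chaperone list was also lowest in sample 2 of each group. This was not particular to ER genes. The means of the IRE1 and XBP1, mitochondrial stress, cytosolic heat shock and stromal lists were likewise lowest in sample 2 of each group. Other lists were not, such as that of mature olfactory neurons, which was lowest in sample 1 of the KO open side. The part of the sample number in these correlations was not tested.

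Genes of the pathway were counted from lists, which hold some members as well, such as Eif2ak3 in the PERK list and Atf3 among the ATF4 and CHOP targets. In the PERK and eIF2 alpha branch 0 of 18 genes were called between closed and open sides, with a median log2 difference of 0.015, and none of the other eIF2 alpha kinases on the list, the phosphatase subunits Ppp1r15a and Ppp1r15b or the Eif2b subunits passed. Among the targets of ATF4 and CHOP 1 of 36 rose and 0 fell, with a median of -0.031. The gene that rose was Gpt2, a mitochondrial alanine aminotransferase, at 9.81 to 9.89 in the KO closed side, against 9.34 to 9.47 in the KO open side, and at 9.74 to 9.82 in the WT closed side, against 9.43 to 9.56 in the WT open side. Its sides did not overlap in either genotype, with a difference of 0.36 (adjusted p = 0.00386, limma), while Asns and Chac1, chosen after their values were seen as familiar targets of the same factor, differed by 0.079 (adjusted p = 0.753, limma) and -0.039 (adjusted p = 0.959, limma).

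In the IRE1 and XBP1 branch 1 of 25 genes rose and 0 fell, with a median of 0.016. It was Spcs3, a subunit of the signal peptidase, with a difference of 0.23 (adjusted p = 0.0328, limma), a call that was lost when any 1 of the 12 arrays was left out (adjusted p from 0.0505 to 0.0916). In the ATF6 branch 0 of 14 were called and the median was 0.053. Among ER chaperones and folding enzymes 1 of 40 rose, Fkbp14, a prolyl isomerase of the ER, with a difference of 0.34 (adjusted p = 0.0192, limma), and 0 fell, with a median of 0.004. The Fkbp14 call was lost in 4 of 12 omissions of single arrays (adjusted p up to 0.0613). In ER-associated degradation 0 of 30 were called, with a median of 0.007, and among mitochondrial stress genes and cytosolic heat shock genes 0 of 13 were called in each, with medians of 0.015 and -0.018. Over all 19390 named genes tested, 3.9% were called and the median was 0.005.

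**Figure D5:**
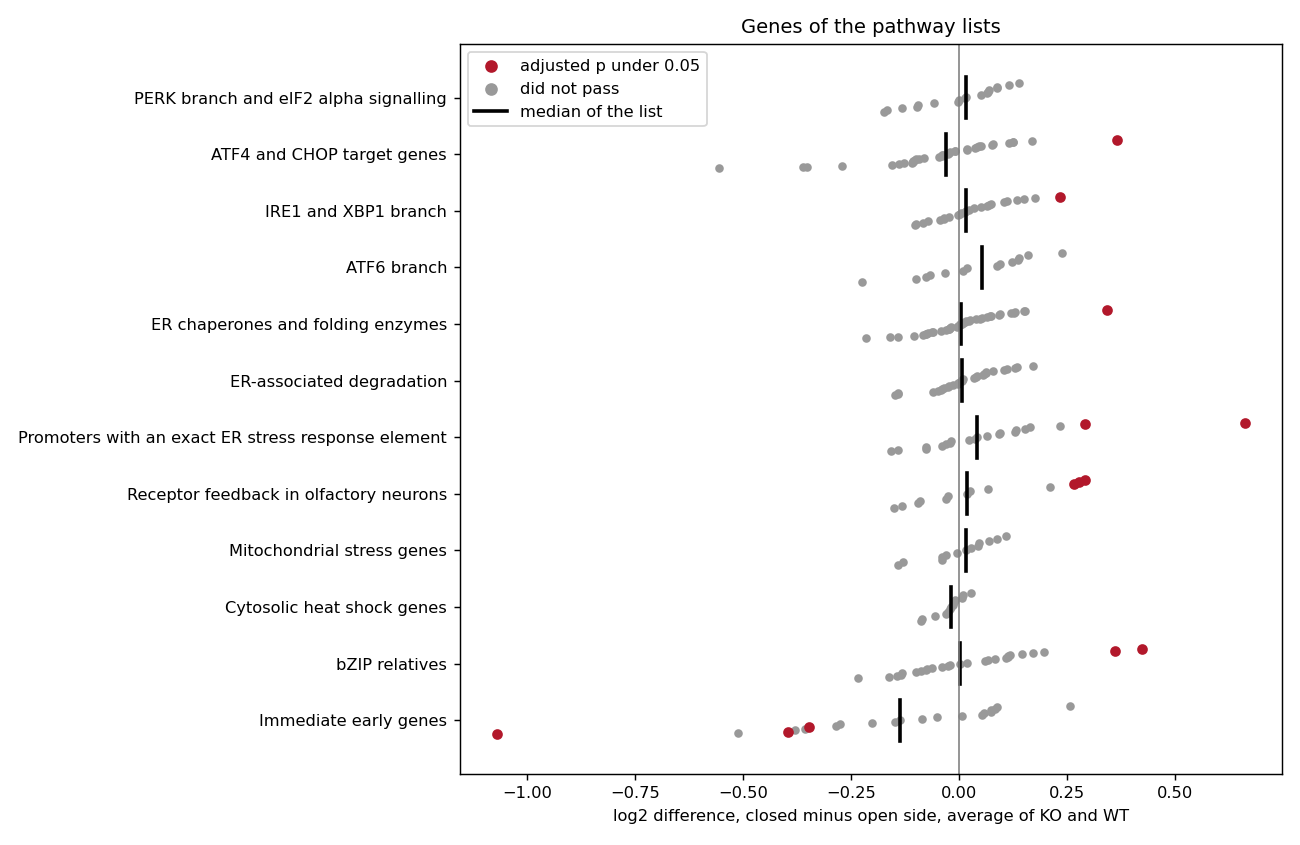
Difference in log2 expression between the closed and the open side, averaged over KO and WT (x axis), for every tested gene of each list (points), with genes past the threshold in red and the median of the list as a bar. The medians of the UPR branches lie between -0.031 and 0.053, and the immediate early genes have their median at -0.14.

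The list of receptor feedback in olfactory neurons included 3 genes that rose of 13 and 0 that fell, with a median of 0.018. Over all named genes 3.9% were called. Of the genes that rose, Adcy3 and Rtp1 are also among the markers of mature olfactory neurons counted below. Adcy3, whose upstream stretch is shown above with the element of Hspa5 and Hsp90b1, was at 11.52 to 11.60 in the KO closed side, against 11.23 to 11.25 in the KO open side, and at 11.48 to 11.54 in the WT closed side, against 11.22 to 11.29 in the WT open side. Its sides did not overlap in either genotype, and the difference was 0.29 (SE 0.052, adjusted p = 0.00997, limma). The receptor transporters Rtp1 and Reep1 rose by 0.27 (adjusted p = 0.0209, limma) and 0.28 (adjusted p = 0.028, limma), and their calls were lost without single arrays (adjusted p up to 0.072 and 0.0907). Kdm1a, a demethylase needed to activate an OR, and Lhx2, a transcription factor of OR genes, both named after their values were seen, differed by -0.15 (adjusted p = 0.369, limma) and 0.025 (adjusted p = 0.927, limma) and did not pass.

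Of the 37 genes whose windows hold the exact ER stress response element, 21 were tested, 2 rose and 0 fell, with a median of 0.041. In this comparison 3.9% of all named genes were called, with a median of 0.005. The 2 that rose were Adcy3 and Olfr59, an OR gene that was named after its values were seen, with a difference of 0.66 (adjusted p = 0.00964, limma). The other carriers of the element among the members, Hspa5 and Hsp90b1, are given above, and the chaperone gene Calr, likewise named afterwards, differed by -0.03 (adjusted p = 0.924, limma). Among 27 bZIP relatives of the ATF genes 2 rose and 0 fell, Jdp2, a repressor that pairs with Jun proteins, by 0.42 (adjusted p = 0.00469, limma) and Atf7 by 0.36 (adjusted p = 0.00237, limma). Jdp2 lay at 7.81 to 7.97 in the KO closed side, against 7.27 to 7.42 in the KO open side, and at 7.61 to 7.82 in the WT closed side, against 7.27 to 7.50 in the WT open side. In both genotypes each closed array of Jdp2 thus lay above each open array.

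Markers of some cell types moved with the side, in a comparison in which 3.9% of all named genes were called. Of 13 markers of mature olfactory neurons 9 rose and 1, the glutamate transporter gene Slc17a6, fell on the closed side, and their mean level was 11.19 to 11.29 on the 6 closed arrays, against 11.00 to 11.10 on the 6 open arrays. Of 11 markers of immature olfactory neurons 0 rose and 7 fell, with a mean level of 9.82 to 9.93 on closed arrays, against 10.04 to 10.13 on open arrays. Among these the call of Tubb3 was lost in 10 of 12 omissions of single arrays (adjusted p up to 0.0712) and that of Dpysl3 in 2 (up to 0.0536). Of 8 markers of globose basal cells 0 rose and 2, Insm1 and Neurod1, fell. The call of Neurod1 was lost in 11 of 12 omissions of single arrays (adjusted p from 0.0488 to 0.124) and in 3 of 9 other settings (up to 0.116). Among the mature markers the call of Cngb1 was lost in 1 of 9 other settings (difference 0.11, adjusted p = 0.631, limma). The largest differences were 0.54 in Kcnk10 and 0.40 in Cnga4, a channel subunit of odor transduction, among the mature markers and -0.42 in Gng8 among the immature ones (adjusted p = 0.000343, 0.00174 and 0.0027, limma). Adcy3 and Rtp1 stand in the mature list as well. In the lists of horizontal basal, sustentacular, glandular, ciliated, microvillous, immune and stromal cells 0 were called. Of 9 markers of respiratory ciliated cells 5 had an unadjusted p under 0.05, where 13.2% of probe sets did, and their median closed-minus-open difference was 0.18. Their mean level was 8.89 to 9.01 in the KO closed side, against 8.73 to 8.93 in the KO open side, with overlap, and 8.94 to 9.09 in the WT closed side, against 8.75 to 8.89 in the WT open side, without overlap. The part of these markers in the differences of Atf3, Eif2ak3, Gpt2 and the receptor feedback genes was not tested. Over the same arrays the averaged differences of Atf5, Hspa5 and Hsp90b1 were 0.0001, -0.018 and 0.023.

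Between KO and WT no gene of any of the lists was called over both sides. The PERK and eIF2 alpha list, which holds Atf4, Atf5, Ddit3 and Eif2ak3, had a median KO-minus-WT difference of 0.062, against -0.019 for all named genes, and 5 of its 18 genes had an unadjusted p under 0.05, where 6.8% of probe sets did. Besides Atf4 and Atf5 these were Eif2b3 (0.20), Ppp1r15b (0.15) and Nfe2l2 (0.15), named after their values were seen, all higher in the KO and none past the adjusted threshold. The mean level of the list includes these 5 genes and is not separate from their values. It was 9.11 to 9.17 in the KO open side, against 9.04 to 9.11 in the WT open side, with no overlap (nearest arrays 9.113 and 9.106). On the closed side it was 9.10 to 9.19 in the KO, against 9.01 to 9.15 in the WT, with overlap. The list was chosen with earlier results known, and the comparison over both sides was added after the data were seen. For the targets of ATF4 and CHOP the median was -0.043, for the IRE1 and XBP1 branch -0.032 and for ER chaperones 0.004, with 0 called in each.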

How the data were processed

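RNA from each side of the MOE was hybridised to 12 Affymetrix Mouse Gene 1.0 ST arrays, 3 per genotype and side. The authors ran the Affymetrix Expression Console, with IterPLIER summarisation and sketch-quantile normalization, and deposited the resulting log2 values of 35556 probe sets, 0 of them missing; a quantile step removes overall shifts between arrays. Gene symbols came from the platform annotation: 21789 probe sets carry 1 symbol, 1621 several and 12146 none, and positions of probes were not given in the sources used here. Each gene was read by its single-symbol probe set with the highest mean.

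Tests were run with limma 3.58.1 in R 4.3.3. Probe sets with a mean log2 of 5 or less (2941) were left out, and lmFit and eBayes gave two-sided tests with 11.5 degrees of freedom, adjusted by Benjamini-Hochberg over 32615 probe sets at a threshold of 0.05. The median standard error was 0.134 for 3 arrays against 3 and 0.095 for averaged comparisons, a precision set by how few arrays there are. Pairs of members were compared by Pearson and Spearman correlation with 100000 permutations, and by exact permutation within a genotype, adjusted over 45 pairs. Promoter windows and symbols came from RefSeq (GRCm38.p6).

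The members and the 22 gene lists were chosen with earlier results of these data known. The text names all members, up to 4 called genes of a list by the size of their moderated statistic, the 5 genes most correlated with Atf5 and with Hspa5, and H2be; other names are marked. The alternatives were other filters, normalizations, variance models, array weights, replicate blocks, the mean of all probe sets and the omission of each array, and 2 were added after seeing the data.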

Additional observations from a re-analysis of the deposited data

How the results depend on the processing

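With a variance trend and robust fitting in limma 1 member, Atf3, was called between closed and open sides on average, where 0 were otherwise. Leaving out single arrays gave between 0 and 1 members called for that comparison and for the closed against the open side in the KO, in both cases 1 without KO closed sample 2, and 0 for the WT and for each comparison of KO with WT. Near-zero differences changed sign: Atf4 was at 5e-04 and Hspa5 at 0.0029 with quantile normalization, and Atf5 at -0.005 with median centring. Without single arrays the averaged closed-minus-open difference ran from -0.0352 to 0.0157 in Atf4, -0.0233 to 0.0176 in Atf5, -0.0302 to 0.1384 in Ddit3, -0.0156 to 0.0591 in Hsp90b1, -0.056 to 0.0273 in Hspa5 and -0.0652 to 0.0369 in Trib3, that of Ern1 in the WT from -0.0102 to 0.1406, and the genotype-by-side difference of Atf3 from -0.4693 to 0.1195. The KO-minus-WT differences over both sides stayed above 0, from 0.1435 to 0.2005 in Atf4 and from 0.1218 to 0.1627 in Atf5. The cause of these changes was not tested.

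Deviations of same-numbered closed and open samples correlated with r from -0.009 to 0.233, and 3 of 6 samples correlated best with their own number. The highest r were those of the number 2 samples, 0.233 in the KO and 0.169 in the WT. So few samples cannot settle whether the numbers are pairs, and the main fit did not pair them. With genotype and number as a replicate block 647 probe sets were called on average, against 945, and 116 in the KO and 97 in the WT, against 341 and 279, and the adjusted p of Atf3 was 0.192. Under that block Spcs3, Reep1 and Rtp1 had adjusted p of 0.0967, 0.0616 and 0.0724. With only the compared groups in the fit 116 probe sets were called in the KO and 36 in the WT, and 4 on the open and 3 on the closed side between KO and WT, against 7 and 8. Trend and robust fitting called 588 in the KO, 523 in the WT, 12 on the open side and 24 over both sides, against 9, H2be among them (adjusted p = 0.00171). Array weights called 544 in the KO, and a filter at 7, which leaves out Atf3, called 487 in the WT and 14 over both sides. Leaving out single arrays gave 590 to 819 on average, 129 to 312 in the KO, 95 to 223 in the WT and 0 to 1 for the genotype-by-side difference. With 3 arrays per group, log2 differences the size of those in Atf4 and Atf5 lie within about 3 standard errors of 0.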
